A study of Homo sapiens with 24 samples.

Results

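Methylthioadenosine salvage and polyamine synthesis were followed through 10 genes, taken by symbol from the 60366 rows of the deposited count table: MRI1, APIP, ENOPH1, ADI1, AMD1, SRM, SMS, ODC1, SAT1 and AZIN1. All 10 had a row, and all 10 passed the filter on low counts in every comparison below. The study profiled poly(A) RNA of 3 human pancreatic adenocarcinoma cell lines, BXPC3, MIAPACA2 and PSN1, each kept for 6 days with AM-9747, an inhibitor of the arginine methyltransferase PRMT5, or with its DMSO vehicle. The AM-9747 dose was 100 nM in BXPC3 and PSN1 and 150 nM in MIAPACA2. Each of the 6 groups of line and treatment had 4 libraries, which makes 24 in all, and the labels give all of them the genotype WT. All 3 are established lines, and the labels do not say whether the 4 libraries of a group came from separate cultures, so p-values measure the spread between these libraries, which may be technical.

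Methylthioadenosine is left over when decarboxylated S-adenosylmethionine donates its aminopropyl group to a polyamine. MTAP, a gene that these lines are known to have lost, cleaves it to adenine and methylthioribose 1-phosphate, and MRI1, APIP, ENOPH1 and ADI1 carry the sugar phosphate back towards methionine. ODC1 makes putrescine from ornithine, AMD1 makes the aminopropyl donor, and SRM and SMS use that donor to build spermidine and spermine. SAT1 acetylates polyamines for export or oxidation, and AZIN1 keeps ODC1 active by binding the antizymes that would send it for degradation. Methylthioadenosine binds PRMT5, and AM-9747 belongs to the inhibitors that bind PRMT5 together with it.

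Libraries held 22412691 to 45561185 counts, and the fewest counts that any of the 10 genes had in a library were 101. Levels are given as CPM, the usual unit of a gene's counts relative to its library's total, after TMM scaling over the 24 libraries. Genes of the mitochondrial genome took 19.99 ± 10.8% of counts in PSN1 AM-9747 libraries and 33.1 ± 11.3% in PSN1 vehicle libraries (SD, n = 4 each), against 7.33 ± 2.60% and 7.26 ± 1.15% in the BXPC3 groups and 13.6 ± 4.30% and 13.6 ± 6.30% in the MIAPACA2 groups. Single libraries of several groups lay apart from the rest of their group. PSN1 vehicle replicate 1 had a mitochondrial share of 17.4%, against 33.5 to 43.8% in the other 3 of its group, and BXPC3 vehicle replicate 4 had 8.98%, against 6.60 to 6.78%. MIAPACA2 AM-9747 replicate 3 had 7.23%, against 14.7 to 16.6%. The MIAPACA2 vehicle libraries were spread widely, at 17.0, 6.58, 10.3 and 20.5%. The epithelial markers KRT8 and KRT18 were present in all 6 groups, whereas CDH1 was at or under 2.65 CPM in every MIAPACA2 and PSN1 library. In vehicle libraries KRT7, KRT19 and EPCAM averaged 2093, 1726 and 115 CPM in BXPC3. They averaged 0.0964, 23.7 and 0.0431 CPM in MIAPACA2 and 311, 168 and 9.06 CPM in PSN1. The mesenchymal markers VIM and ZEB1 averaged 7.62 and 0.197 CPM in BXPC3 vehicle libraries. In vehicle libraries of MIAPACA2 they averaged 8853 and 34.5 CPM, and in those of PSN1 1252 and 13.3 CPM. The immune marker PTPRC stayed at or under 0.510 CPM in all libraries and CD3E was at 0 in MIAPACA2 and PSN1, while CD14 ranged from 17.96 to 38.5 CPM in PSN1 AM-9747 libraries and from 17.7 to 39.6 CPM in PSN1 vehicle libraries. The 3 immune markers together came to 3.99 to 5.51 CPM and 3.28 to 5.32 CPM in those groups of BXPC3, and to at most 1.90 CPM in MIAPACA2. The endothelial markers PECAM1 and CDH5 together came to 16.7 to 25.5 CPM with AM-9747 and 29.7 to 38.6 CPM with vehicle in PSN1, and to 23.4 to 28.8 CPM with AM-9747 and 14.3 to 18.7 CPM with vehicle in BXPC3. In MIAPACA2 that sum was at most 0.619 CPM. CDH5 reached at most 0.573 CPM in PSN1, where the sum was thus nearly all PECAM1. In BXPC3 CDH5 averaged 24.1 CPM with AM-9747 and 11.2 CPM with vehicle, and PECAM1 averaged 2.29 and 4.58 CPM. The 4 fibroblast markers summed to 40.5 to 66.8 CPM with AM-9747 and 18.6 to 33.1 CPM with vehicle in PSN1, to 953 to 1610 CPM and 1662 to 2826 CPM in MIAPACA2, and to 20.8 to 27.3 CPM and 14.1 to 20.9 CPM in BXPC3. The MIAPACA2 sum was nearly all COL1A2, which averaged 1180 CPM with AM-9747 and 2206 CPM with vehicle. COL1A1, PDGFRB and DCN each reached at most 3.655 CPM in any MIAPACA2 library. The part of these markers in the results was not tested. MTAP had 19 to 55 counts in BXPC3 AM-9747 libraries and 5 to 16 in BXPC3 vehicle libraries, 23 to 71 and 11 to 48 in the MIAPACA2 groups, and 35 to 81 and 27 to 97 in the PSN1 groups.

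MRI1 was called as lower in all 3 lines, and no other member was called in more than 1 line. A member that was not called is not shown to be unchanged. In BXPC3, ENOPH1 and ODC1 rose while MRI1 fell, which is 3 of 10 members called. Over all 17638 genes tested there, 29.2% were called in either direction, 13.2% as higher and 16% as lower. In MIAPACA2, MRI1 and SRM fell and no member rose, 2 of 10 called against 13.6% of 18090 genes, 6.84% as lower. In PSN1, MRI1 alone was called, 1 of 10 against 10.7% of 18287 genes, 6.17% as lower. A call is an adjusted p below 0.05 in edgeR's quasi-likelihood test, fitted within the line and adjusted over all genes by the Benjamini-Hochberg method. The median log2 fold change of the 10 members was -0.09 for BXPC3, -0.16 for MIAPACA2 and 0.49 for PSN1, and that of all genes tested lay between -0.002 and 0.03 in the 3 lines. Without PSN1 vehicle replicate 1, 7 of 10 members were called in PSN1, against 23% of 18979 genes. The 8 fits that left out 1 PSN1 library called 0 to 7 members. Without that vehicle library the mitochondrial share was 33.5 to 43.8% with vehicle and 7.98 to 31.1% with AM-9747. Share and treatment then did not overlap, and their parts in these PSN1 calls cannot be told apart.

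**Figure D1:**
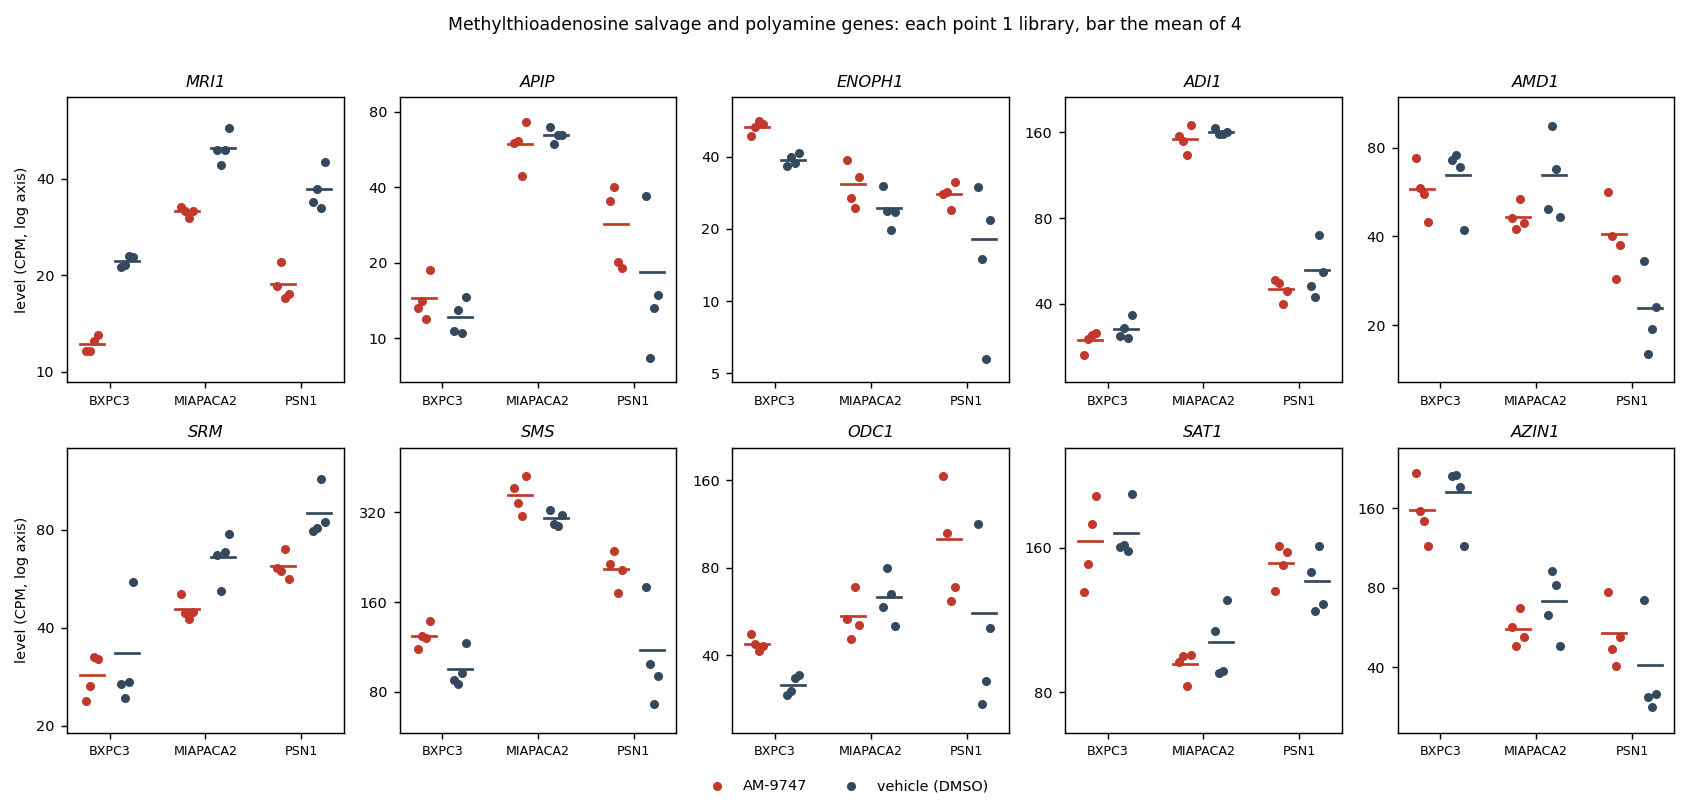
Level of each of the 10 genes in CPM (log axis) in every library, with AM-9747 libraries left of vehicle libraries within each line and a bar at the mean of 4. MRI1 is the gene whose AM-9747 libraries all lie below the vehicle libraries in each line, and SMS, AZIN1, APIP and ODC1 have 1 PSN1 vehicle library far above the other 3.

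MRI1 isomerises methylthioribose 1-phosphate, the step that follows MTAP. In BXPC3 it stood at 11.6, 11.6, 12.5 and 13.01 CPM in AM-9747 libraries and at 21.2, 21.5, 23.0 and 22.7 CPM in vehicle libraries. In MIAPACA2 it stood at 32.7, 31.8, 30.2 and 31.6 CPM with AM-9747 and at 49.2, 44.0, 49.2 and 57.3 CPM with vehicle. In PSN1 it stood at 18.5, 21.9, 17.0 and 17.5 CPM with AM-9747 and at 33.8, 37.0, 32.3 and 45.1 CPM with vehicle. The groups did not overlap in any line, and of the 14476 genes tested in all 3 lines, 2.01% had every AM-9747 library below every vehicle library in each of them. A lower level in a culture can mean fewer cells with the transcript or less of it per cell, and these cannot be told apart in bulk RNA.

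The log2 fold change of MRI1 was -0.86 ± 0.11 (SE) in BXPC3 (edgeR adjusted p = 0.000543), -0.64 ± 0.12 in MIAPACA2 (adjusted p = 0.00696) and -1.03 ± 0.22 in PSN1 (adjusted p = 0.0172). Genes lower and called in each of the 3 lines made up 1.16% of those tested in all of them. Averaged over the lines in a joint fit, MRI1 fell by 0.84 ± 0.08 on the log2 scale (adjusted p = 8.70e-08), and its response did not pass the test of a difference between lines (F test, adjusted p = 0.479). The PSN1 call was lost in 5 of the 8 fits that left out 1 library, those without vehicle replicates 2 or 4 or AM-9747 replicates 2, 3 or 4 (adjusted p = 0.0522 to 0.0673), and without scaling beyond the library total (log2 -0.68, adjusted p = 0.113). With the mitochondrial share of each library as a covariate MRI1 was called in all 3 lines, at -0.86, -0.63 and -1.03.

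MRI1 (ENSG00000037757) lies on chromosome 19, 13764532 to 13774282 on the plus strand of GRCh38. Its exons share 115 bases with C19orf53 on the same strand in GENCODE v29, so reads there could be counted for either gene. C19orf53 did not pass in any line: its log2 fold changes were 0.24 ± 0.33 (BXPC3), -0.12 ± 0.19 (MIAPACA2) and 0.14 ± 0.23 (PSN1). The antisense gene AC008686.1 had 2.11% as many counts as MRI1 over the 24 libraries. Elsewhere in that annotation are APIP (chromosome 11, 34853094 to 34916499), ENOPH1 (chromosome 4, 82430562 to 82461091), ADI1 (chromosome 2, 3497361 to 3519736), AMD1 (chromosome 6, 110874770 to 110895713) and SRM (chromosome 1, 11054584 to 11060024). SMS (21940573 to 21994835) and SAT1 (23783173 to 23786226) lie on chromosome X, and ODC1 lies on chromosome 2 (10439968 to 10448504).

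The promoters printed are those of the 4 members called within a line: MRI1 and SRM fell, and ENOPH1 and ODC1 rose. Each is the 250 bases upstream of the RefSeq start (GRCh38.p14), 5′ to 3′ on the gene's strand, with every CACGTG in capitals, the E-box that MYC and related factors bind. The windows are chr19:13764272-13764521 for MRI1, chr4:82430340-82430589 for ENOPH1, chr1:11060019-11060268 for SRM on the minus strand and chr2:10448328-10448577 for ODC1 on the minus strand.
MRI1: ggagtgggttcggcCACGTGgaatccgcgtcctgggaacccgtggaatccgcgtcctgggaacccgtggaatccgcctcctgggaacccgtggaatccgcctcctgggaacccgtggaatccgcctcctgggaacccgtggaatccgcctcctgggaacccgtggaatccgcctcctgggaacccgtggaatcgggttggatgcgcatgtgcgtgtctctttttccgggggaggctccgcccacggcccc
ENOPH1: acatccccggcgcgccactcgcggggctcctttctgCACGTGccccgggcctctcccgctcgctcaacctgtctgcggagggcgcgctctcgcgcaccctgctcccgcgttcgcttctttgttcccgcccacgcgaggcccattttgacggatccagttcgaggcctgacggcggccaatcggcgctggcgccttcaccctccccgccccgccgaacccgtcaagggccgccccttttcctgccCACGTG
SRM: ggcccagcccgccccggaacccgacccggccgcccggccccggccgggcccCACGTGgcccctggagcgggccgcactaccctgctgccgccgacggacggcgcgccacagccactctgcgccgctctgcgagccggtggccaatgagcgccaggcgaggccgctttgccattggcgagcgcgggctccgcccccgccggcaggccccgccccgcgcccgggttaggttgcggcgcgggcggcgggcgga
ODC1: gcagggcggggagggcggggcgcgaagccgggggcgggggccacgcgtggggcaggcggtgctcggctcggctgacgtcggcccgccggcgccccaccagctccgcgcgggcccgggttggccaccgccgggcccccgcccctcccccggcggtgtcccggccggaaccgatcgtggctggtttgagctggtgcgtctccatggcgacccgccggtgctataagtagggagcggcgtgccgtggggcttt
RefSeq windows were matched for 9 of the 10 members. CACGTG, which reads the same on both strands, occurred in a window of 5 of these 9 genes, MRI1, ENOPH1, ADI1, SRM and ODC1, and in 7.7% of all 27305 genes with a window. ENOPH1 held 2 copies, and ODC1 had its copy in the window of another RefSeq start, not in the one printed. SMS, which was called for the mean response over the 3 lines but in no line alone, had no copy and is not printed. The MRI1 window carried 7 copies of the unit GTGGAATCCGC, the first of which shares 3 bases with the CACGTG. Searched on both strands, the unit occurred in 0.0114% of the 35116 windows, and MRI1 was the single gene with 2 or more copies. The unit was read off the MRI1 window itself, so its presence there was set in advance. Its rarity elsewhere was not compared with that of other strings of the same length. A match is a string of letters and says nothing of whether a factor binds there. MYC itself fell in MIAPACA2 (log2 -0.77 ± 0.19, edgeR adjusted p = 0.0253) and did not pass in BXPC3 (-0.14 ± 0.11, adjusted p = 0.378) or PSN1 (-0.18 ± 0.26, adjusted p = 0.683).

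Among the later salvage enzymes, ENOPH1, the enolase and phosphatase that acts after APIP, rose in BXPC3. Its levels there were 48.9, 53.4, 56.6 and 54.7 CPM with AM-9747 and 36.6, 40.1, 37.7 and 41.3 CPM with vehicle. The groups did not overlap, as was so for 15% of genes on that side, and the log2 fold change was 0.46 ± 0.11 (edgeR adjusted p = 0.0106). In MIAPACA2 ENOPH1 ranged from 24.5 to 38.6 CPM with AM-9747 and from 19.8 to 30.2 CPM with vehicle (log2 0.36 ± 0.18, adjusted p = 0.212). In PSN1 it ranged from 23.95 to 31.5 CPM with AM-9747 and from 5.73 to 29.9 CPM with vehicle (log2 0.59 ± 0.40, adjusted p = 0.356). ENOPH1 thus had a positive value in each line, but 1 of the 3 passed. In the joint fit of all 6 groups, whose spread is shared with the more variable PSN1 libraries, the BXPC3 call was lost (adjusted p = 0.362).

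APIP, the dehydratase of the pathway, averaged 14.5 ± 2.99 CPM with AM-9747 and 12.2 ± 1.97 CPM with vehicle in BXPC3 (SD, n = 4 each). In MIAPACA2 it averaged 59.6 ± 11.8 CPM with AM-9747 and 64.6 ± 4.01 CPM with vehicle. In PSN1 it stood at 35.1, 39.9, 20.2 and 19.1 CPM with AM-9747 and at 37.1, 8.34, 13.2 and 14.8 CPM with vehicle. The first vehicle library of PSN1 lay among the AM-9747 libraries and the other 3 below them all. The PSN1 log2 fold change was 0.61 ± 0.43 (edgeR adjusted p = 0.375) with all libraries and 1.17 ± 0.35 (adjusted p = 0.0354) without vehicle replicate 1. The exons of APIP overlap those of PDHX on the opposite strand by 259 bases, and whether counting used strand is not given in the sources used here. PDHX, with a log2 fold change of 1.02 ± 0.33 in PSN1 (adjusted p = 0.0728), also did not pass there.

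ADI1, the dioxygenase that completes the carbon skeleton of methionine, did not pass in any line. It averaged 29.8 ± 2.28 CPM with AM-9747 and 32.6 ± 2.81 CPM with vehicle in BXPC3. It averaged 152 ± 15.2 and 160 ± 3.90 CPM in MIAPACA2, and 45.01 ± 3.87 and 52.4 ± 12.2 CPM in PSN1, with AM-9747 and with vehicle in that order. The 95% intervals of its log2 fold change spanned -0.39 to 0.14 (BXPC3), -0.30 to 0.19 (MIAPACA2) and -0.74 to 0.21 (PSN1).

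Of the polyamine genes, ODC1 rose in BXPC3. Its levels were 47.3, 43.5, 41.3 and 43.1 CPM with AM-9747 and 29.1, 30.1, 33.3 and 34.2 CPM with vehicle. The groups did not overlap, and the log2 fold change was 0.47 ± 0.11 (edgeR adjusted p = 0.0101), a call that was lost in the joint fit (adjusted p = 0.438). In MIAPACA2 ODC1 ranged from 45.6 to 68.5 CPM with AM-9747 and from 50.5 to 79.96 CPM with vehicle (log2 -0.19 ± 0.17, adjusted p = 0.481). In PSN1 it stood at 166, 105, 61.5 and 68.5 CPM with AM-9747 and at 113, 27.1, 32.6 and 49.7 CPM with vehicle. The PSN1 value was 0.82 ± 0.45 (adjusted p = 0.256), and 1.39 ± 0.37 (adjusted p = 0.0244) without vehicle replicate 1.

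AZIN1, the antizyme inhibitor, was called in no line with all libraries. In BXPC3 it stood at 217, 156, 143 and 115 CPM with AM-9747 and at 212, 214, 192 and 115 CPM with vehicle, and replicate 4 was the lowest library of each group. In MIAPACA2 it ranged from 48.1 to 66.7 CPM with AM-9747 and from 48.1 to 92.7 CPM with vehicle. In PSN1 it stood at 77.2, 46.7, 40.4 and 51.9 CPM with AM-9747 and at 71.9, 30.7, 28.2 and 31.5 CPM with vehicle. The log2 fold changes were -0.22 ± 0.23, -0.33 ± 0.19 and 0.38 ± 0.32 in BXPC3, MIAPACA2 and PSN1, with edgeR adjusted p = 0.518, 0.294 and 0.467. Without PSN1 vehicle replicate 1 the PSN1 value was 0.77 ± 0.25 (adjusted p = 0.0476).

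AMD1, S-adenosylmethionine decarboxylase, is the 1 member that passed the test of a difference between lines (F test, edgeR adjusted p = 0.0405). That call was lost in 17 of the 24 fits that left out 1 library and in 1 of 7 other settings. In BXPC3 it stood at 73.9, 58.2, 55.7 and 44.6 CPM with AM-9747 and at 72.7, 75.4, 68.6 and 41.9 CPM with vehicle. In MIAPACA2 it stood at 46.2, 42.4, 53.6 and 44.5 CPM with AM-9747 and at 49.6, 94.8, 67.6 and 46.4 CPM with vehicle. In PSN1 it stood at 56.4, 40.3, 28.8 and 37.3 CPM with AM-9747 and at 33.0, 15.99, 19.5 and 23.1 CPM with vehicle. The groups overlapped in each line, and none of the 3 fits within a line passed: the log2 fold changes were -0.15 ± 0.21, -0.44 ± 0.21 and 0.79 ± 0.28 in BXPC3, MIAPACA2 and PSN1 (edgeR adjusted p = 0.618, 0.187 and 0.0899). Without PSN1 vehicle replicate 1 the PSN1 value was 0.99 ± 0.27 (adjusted p = 0.0268). With all libraries, 3 of 8 other settings made the PSN1 call (adjusted p down to 0.0214).

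SRM, spermidine synthase, fell in MIAPACA2. It stood there at 50.9, 44.4, 42.6 and 44.6 CPM with AM-9747 and at 66.8, 51.9, 68.2 and 77.5 CPM with vehicle. The groups did not overlap, as was so for 11% of genes on that side, and the log2 fold change was -0.51 ± 0.14 (edgeR adjusted p = 0.0364). The call was kept in the fit without MIAPACA2 vehicle replicate 2 and lost in each of the other 7 that left out 1 library (adjusted p = 0.0574 to 0.0986), and in 4 of 8 other settings (adjusted p up to 0.165). In PSN1 SRM stood at 61.2, 59.8, 69.8 and 56.5 CPM with AM-9747 and at 79.4, 80.8, 114 and 84.6 CPM with vehicle. Those groups did not overlap either, as for 9.72% of genes on that side, yet the value of -0.58 ± 0.20 missed the threshold (adjusted p = 0.0896), and without vehicle replicate 1 it was -0.65 ± 0.20 (adjusted p = 0.0376). In BXPC3 SRM stood at 23.8, 26.4, 32.4 and 32.0 CPM with AM-9747 and at 26.8, 24.3, 27.2 and 55.4 CPM with vehicle. Vehicle replicate 4 there was far above the rest, and the BXPC3 value was -0.22 with it and 0.13 without it, neither of which passed.

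SMS, spermine synthase, was higher on average in all 3 lines but passed in none of the 3 fits within a line. In BXPC3 it stood at 111, 123, 122 and 138 CPM with AM-9747 and at 87.5, 84.8, 92.4 and 117 CPM with vehicle. In MIAPACA2 it stood at 387, 343, 311 and 422 CPM with AM-9747 and at 326, 293, 288 and 314 CPM with vehicle. In PSN1 it stood at 215, 237, 171 and 205 CPM with AM-9747 and at 180, 99.3, 73.1 and 90.7 CPM with vehicle. A single vehicle library in BXPC3, 2 in MIAPACA2 and 1 in PSN1 lay above the lowest AM-9747 library of their line. The log2 fold changes were 0.38 ± 0.13, 0.28 ± 0.12 and 0.87 ± 0.27 (edgeR adjusted p = 0.0600, 0.157 and 0.0626). The call was made in BXPC3 without vehicle replicate 4 (0.48, adjusted p = 0.00737) or AM-9747 replicate 1 (0.43, adjusted p = 0.0463), and in PSN1 without vehicle replicate 1 (1.17, adjusted p = 0.00537). With all libraries, 6 of 8 other settings made the call in BXPC3 (adjusted p down to 0.00655), 2 in MIAPACA2 (down to 0.0133) and 4 in PSN1 (down to 0.00249).

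SAT1, which acetylates spermidine and spermine, averaged 166 ± 33.6 CPM with AM-9747 and 172 ± 23.7 CPM with vehicle in BXPC3. It averaged 91.4 ± 6.15 and 102 ± 17.4 CPM in MIAPACA2, and 149 ± 13.6 and 136 ± 20.1 CPM in PSN1, with AM-9747 and with vehicle in that order. The 95% intervals of its log2 fold change ran from -0.42 to 0.33, from -0.45 to 0.18 and from -0.34 to 0.51 in BXPC3, MIAPACA2 and PSN1.

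**Figure D2:**
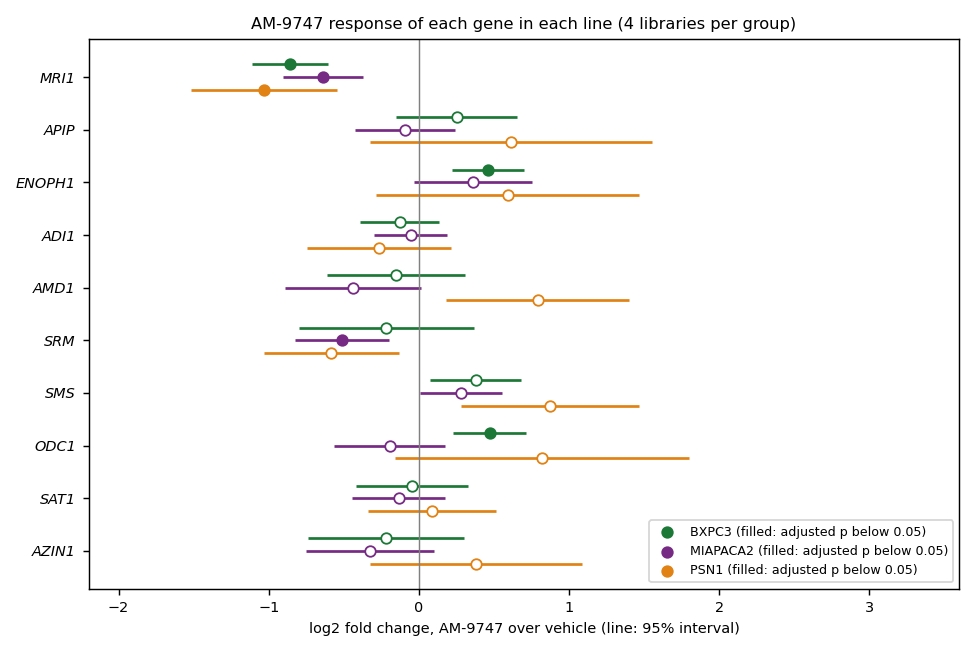
Log2 fold change of AM-9747 over vehicle for each gene in each line, with its 95% interval and filled symbols where edgeR's adjusted p is below 0.05. MRI1 is filled in all 3 lines, and the PSN1 intervals are the widest for 9 of the 10 genes, all but SRM.

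The mean response over the 3 lines was called for 4 of 10 members, against 23.3% of 22883 genes, 12.6% as higher and 10.7% as lower. MRI1 fell by 0.84 and SRM by 0.43 ± 0.12 on the log2 scale (edgeR adjusted p = 0.0122), while SMS rose by 0.51 ± 0.12 (adjusted p = 0.00229) and ENOPH1 by 0.47 ± 0.16 (adjusted p = 0.0382). The median over all genes was 0.09. SMS, the enzyme of the last step of the path, kept its call in each of the 24 fits that left out 1 library (0.45 to 0.62) and under each of the 8 other settings tried (0.31 to 0.66). SRM lost its call without scaling (-0.26, adjusted p = 0.102) and over BXPC3 and MIAPACA2 alone (-0.38, adjusted p = 0.0785). ENOPH1 lost it in 15 of the 24 fits that left out 1 library (adjusted p up to 0.0764). Without PSN1 vehicle replicate 1, 6 of 10 members were called, against 28.2% of genes: APIP (0.45 ± 0.14, adjusted p = 0.0151) and ODC1 (0.56 ± 0.14, adjusted p = 0.00461) joined those 4. Across the 24 fits that left out 1 library, 3 to 6 members were called.

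The test of a difference between the 3 responses was passed by AMD1 (F test, edgeR adjusted p = 0.0405), 1 of 10 members, against 12.1% of genes. The AMD1 response in MIAPACA2 minus that in PSN1 was -1.30 ± 0.36 (log2, adjusted p = 0.0245), where 10.4% of genes passed, and the BXPC3 response minus the PSN1 response was -0.98 ± 0.36 (adjusted p = 0.0892), where 8.33% passed. No member passed for BXPC3 minus MIAPACA2, against 2.07% of genes, and none had an unadjusted p under 0.05 there in edgeR. The call was lost in 17 of the 24 fits that left out 1 library (adjusted p up to 0.112) and with a voom weight per group, which lets the lines differ in spread (adjusted p = 0.159). Without PSN1 vehicle replicate 1 it was 0.00667, and APIP, SMS, ODC1 and AZIN1 passed as well, 5 of 10 against 25.7% of genes. Across the 24 fits that left out 1 library, 0 to 5 members passed. A dose of 150 nM in MIAPACA2 and 100 nM in the other lines goes with the line, and the 2 cannot be told apart.

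Of the 10 members, 5 correlated with the mitochondrial share of their library by Pearson's r and 4 of these also by Spearman's rho. How many of all genes would pass is not given, so the count cannot be called particular to these members. AMD1, AZIN1 and ODC1 were lower where the share was higher, and SRM and SAT1 were higher. After each group's mean was taken off, AMD1 (log2 CPM) correlated with the log2 mitochondrial share over the 24 libraries at Pearson's r = -0.87 (permutation p = 1e-05, adjusted over 55 relations 0.000183) and Spearman's rho = -0.89 (permutation p = 1e-05, adjusted 0.000275). AZIN1 gave r = -0.82 (permutation p = 1e-05, adjusted 0.000183) and rho = -0.79 (permutation p = 3e-05, adjusted 0.00055). ODC1 gave r = -0.80 (permutation p = 5e-05, adjusted 0.000688) and rho = -0.81 (permutation p = 0.00024, adjusted 0.0033). Without the 2 most deviant libraries r was -0.88, -0.76 and -0.74 for the 3 genes. SRM gave r = 0.45 (permutation p = 0.0043, adjusted 0.0215) and rho = 0.49 (permutation p = 0.0138, adjusted 0.0474), and r = 0.52 without the 2. SAT1 gave r = 0.59 (permutation p = 0.00521, adjusted 0.0239), but its rho of 0.56 (permutation p = 0.0178) missed after adjustment (0.0576), and r was 0.52 without the 2. The 100000 permutations kept libraries within their group, and 1e-05 is the smallest p they can give. MRI1 gave r = 0.25 (permutation p = 0.364, adjusted 0.59) and rho = 0.26 (permutation p = 0.308, adjusted 0.434), and r = 0.39 without the 2 most deviant libraries. Level and share come from the same library and its depth.

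With that share as a covariate the PSN1 log2 values were 0.41 for AMD1, 0.07 for ODC1, -0.01 for AZIN1, -0.05 for APIP and 0.61 for SMS (edgeR adjusted p = 0.319, 0.8995, 0.986, 0.944 and 0.153). In MIAPACA2 the same covariate left AMD1 at -0.39 (adjusted p = 0.00442), AZIN1 at -0.30 (adjusted p = 0.0124) and SMS at 0.28 (adjusted p = 0.0133), 5 members called in all with MRI1 and SRM. With the covariate 6382 genes were called there, against 2456 without it.

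Of the 45 pairs of members, 11 passed by both r and rho after adjustment, 7 with a positive and 4 with a negative r. The share among pairs of other genes is not given, so this count has no background to be read against. The highest r was that of AMD1 and AZIN1, and the lowest that of AMD1 and SRM. AMD1 and AZIN1 gave r = 0.92 (permutation p = 1e-05, adjusted 0.000183) and rho = 0.92 (permutation p = 1e-05, adjusted 0.000275) after group means were removed, and r = 0.92 without the 2 most deviant libraries. AMD1 and SRM went the opposite way, with r = -0.68 (permutation p = 0.00238, adjusted 0.0145), rho = -0.67 (permutation p = 0.00274, adjusted 0.0188) and r = -0.56 without those 2 libraries. All 3 genes also correlated with the mitochondrial share, AMD1 and AZIN1 with a negative and SRM with a positive r, and these relations cannot be told apart.

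**Figure D3:**
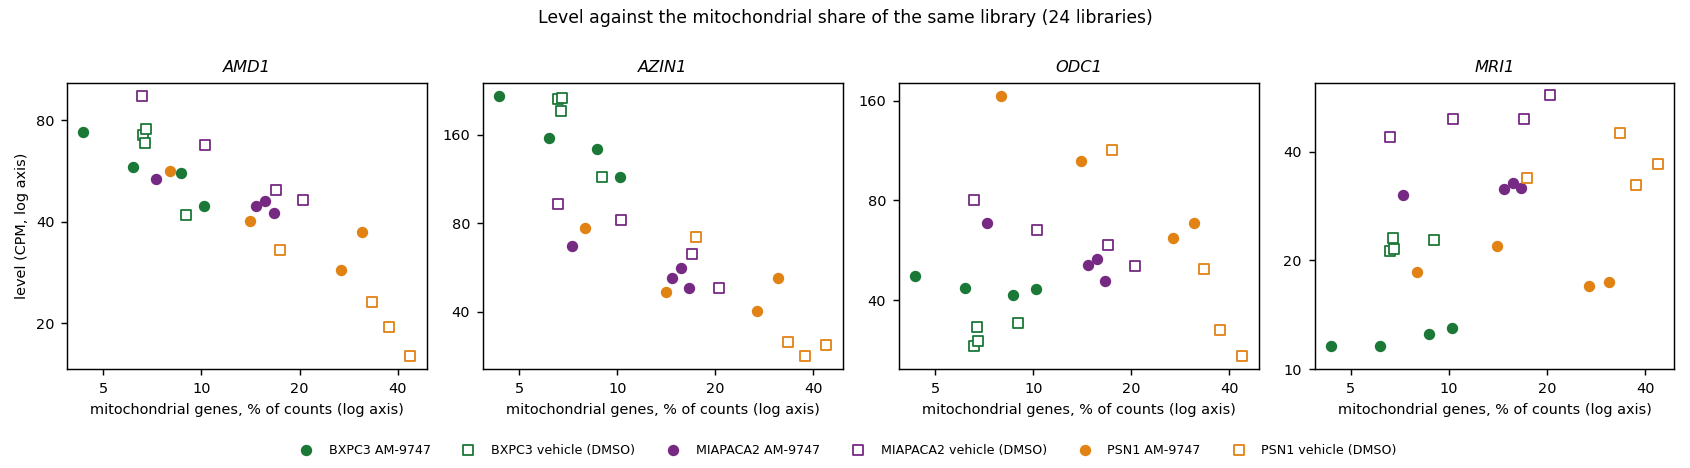
Level in CPM of AMD1, AZIN1, ODC1 and MRI1 against the percentage of counts from mitochondrial genes in the same library (both axes log), with filled symbols for AM-9747 and open ones for vehicle. AMD1 and AZIN1 descend to the right within the lines, and in MRI1 the filled symbols lie below the open ones of their line.

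Vehicle levels of most of these genes, like those of most genes tested, differed between lines. In vehicle libraries 9 of 10 members passed the F test between lines, against 73.3% of 20067 genes. BXPC3 minus PSN1 was called for 6 members (60.7% of genes), MIAPACA2 minus PSN1 for 5 (50.9%) and BXPC3 minus MIAPACA2 for 8 (48.4%).

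The salvage genes MRI1, APIP and ADI1 were ordered alike, highest in MIAPACA2, then PSN1, then BXPC3. ADI1 averaged 32.6 ± 2.81 CPM in BXPC3, 160 ± 3.90 CPM in MIAPACA2 and 52.4 ± 12.2 CPM in PSN1 vehicle libraries (SD, n = 4 each), and each pair of lines differed (edgeR adjusted p at most 0.00263). MRI1 averaged 22.1 ± 0.887, 49.95 ± 5.49 and 37.0 ± 5.72 CPM in the same order of lines, and MIAPACA2 and PSN1 did not pass (adjusted p = 0.0906). APIP averaged 12.2 ± 1.97, 64.6 ± 4.01 and 18.4 ± 12.8 CPM, and BXPC3 and PSN1 did not pass (adjusted p = 0.142). ENOPH1 had another order, 38.9 ± 2.14, 24.4 ± 4.32 and 18.1 ± 10.2 CPM, where BXPC3 and PSN1 alone passed (adjusted p = 0.0228). BXPC3 and MIAPACA2 missed (adjusted p = 0.124) in a fit whose spread is shared with PSN1. Their libraries did not overlap, at 36.6 to 41.3 and 19.8 to 30.2 CPM. That pair passed in 1 of 7 other settings (adjusted p = 0.00368).

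Among the polyamine genes, SMS was highest in MIAPACA2 at 305 ± 17.7 CPM, against 95.4 ± 14.6 CPM in BXPC3 and 111 ± 47.2 CPM in PSN1. BXPC3 and PSN1 did not pass against each other (edgeR adjusted p = 0.393). SRM ran 33.4 ± 14.7, 66.1 ± 10.6 and 89.8 ± 16.6 CPM in BXPC3, MIAPACA2 and PSN1, with MIAPACA2 and PSN1 not passing (adjusted p = 0.111). AZIN1 ran the other way, at 183 ± 46.7, 71.4 ± 19.9 and 40.6 ± 20.9 CPM, again with MIAPACA2 and PSN1 not passing (adjusted p = 0.0753). AMD1 was at 64.7 ± 15.4 and 64.6 ± 22.2 CPM in BXPC3 and MIAPACA2 (adjusted p = 0.911) and at 22.9 ± 7.34 CPM in PSN1. SAT1 was at 172 ± 23.7, 102 ± 17.4 and 136 ± 20.1 CPM, with BXPC3 and PSN1 not passing (adjusted p = 0.144). ODC1 missed the F test (adjusted p = 0.0609) at 31.7 ± 2.47, 63.6 ± 12.5 and 55.7 ± 39.6 CPM, and passed it at 0.00240 without PSN1 vehicle replicate 1. It passed in 3 of the 12 fits that left out 1 vehicle library, and, with all libraries, in 4 of 7 other settings (adjusted p down to 0.0111). Of the 12 fits that left out 1 vehicle library, 8 lost the ENOPH1 F test (adjusted p up to 0.0836), 8 lost ODC1 in BXPC3 minus MIAPACA2 (adjusted p up to 0.109) and 7 lost SAT1 in MIAPACA2 minus PSN1 (adjusted p up to 0.12).

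Per kilobase of exon, the scale on which genes can be compared, the vehicle level was highest for SAT1 in BXPC3 (68.8 CPM per kb) and for SMS in MIAPACA2 (141 CPM per kb). In PSN1 the highest means, of SAT1 (54.5 ± 8.05 CPM per kb), SMS (51.2 ± 21.9) and SRM (47.3 ± 8.74), were closer than their SDs. The lowest was APIP in BXPC3 (2.29 CPM per kb). In MIAPACA2 the lowest means, of AMD1 (9.19 ± 3.16 CPM per kb) and AZIN1 (11.1 ± 3.10), were closer than their SDs. In PSN1 the lowest were AMD1 (3.26 ± 1.04 CPM per kb) and APIP (3.44 ± 2.396 CPM per kb), which were closer than their SDs. With AM-9747 the highest was SMS in MIAPACA2 (169 CPM per kb) and PSN1 (95.9 CPM per kb). In BXPC3 SAT1 had the highest mean (66.3 ± 13.4 CPM per kb), but SMS (57.2 ± 5.06) lay within its SD.

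**Figure D4:**
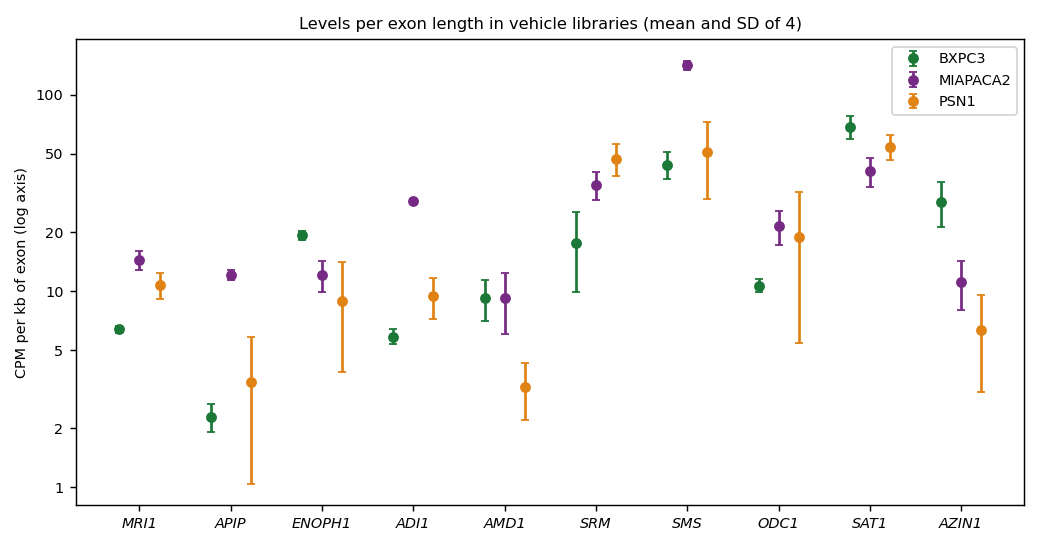
Mean level per kilobase of exon (CPM per kb, log axis) of each gene in the 4 vehicle libraries of each line, with the SD. SMS and ADI1 stand highest in MIAPACA2, AZIN1 in BXPC3 and SRM in PSN1.

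The genes whose levels ran most like each member were found over the 24 libraries after taking off each line's mean (Pearson's r of log2 CPM among 11218 other protein-coding genes, a description in which libraries share depth and treatment). DDIT4 (r = 0.96) and PGAP3 (0.95) ran most like MRI1. CAPRIN1 and TRAM1 (both 0.96) ran most like AMD1, UBQLN1 and CLIC4 (both 0.97) most like AZIN1, and DNAJA1 and CCT5 (both 0.96) most like ODC1. LAMTOR5 and TTC1 (both 0.97) came first for SMS, IGFBP6 (0.93) and GIPC1 (0.91) for SRM, and HOXB7 (0.89) and TMEM138 (0.87) for SAT1. EIF3H (0.94) and PHF5A (0.93) came first for APIP, NFKBIE (0.94) and WRNIP1 (0.93) for ENOPH1, and ZSWIM7 (0.83) and NR2F6 (0.81) for ADI1.

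Of 17 listed genes of the methionine cycle and transsulfuration, 1 rose and 5 fell of 14 tested in BXPC3, 3 fell of 16 in MIAPACA2 and 2 fell of 14 in PSN1. Over all genes tested in BXPC3, 13.2% were called as higher and 16% as lower. In either direction, 13.6% were called in MIAPACA2 and 10.7% in PSN1. Whether this list or those below differ from these shares was not tested. MAT2A, which makes S-adenosylmethionine, fell in BXPC3 to 126 ± 15.1 CPM with AM-9747, against 243 ± 22.3 CPM with vehicle (log2 -0.94 ± 0.12, edgeR adjusted p = 0.000535). In MIAPACA2 it fell to 206 ± 62.1 CPM, against 463 ± 89.9 CPM (-1.14 ± 0.21, adjusted p = 0.00646), and in PSN1 it did not pass (-0.53 ± 0.49, adjusted p = 0.517). GOT1, a transaminase that can complete methionine salvage, fell in BXPC3 (-0.94 ± 0.13, adjusted p = 0.000642) and MIAPACA2 (-0.50 ± 0.12, adjusted p = 0.0210). CTH, which cleaves cystathionine to cysteine, fell in PSN1 to 4.47 ± 1.27 CPM with AM-9747, against 20.1 ± 10.4 CPM with vehicle (-2.195 ± 0.38, adjusted p = 0.00713), and in BXPC3 by 0.48 ± 0.16 (adjusted p = 0.0456), a call lost in the 6 fits that left out vehicle or AM-9747 replicate 1, 2 or 3 (adjusted p up to 0.131).

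CBS, which draws homocysteine into transsulfuration, was lower in all 3 lines. It shares its reads with CBSL, a near-identical copy in GRCh38, so its own values are uncertain. CBS had 0 counts in each BXPC3 AM-9747 library and 42 to 80 in the vehicle libraries, while CBSL had 1 to 16 and 0 to 6. Summed over both copies, the level was 0.208 ± 0.167 CPM with AM-9747 and 1.55 ± 0.252 CPM with vehicle in BXPC3. The sum was 77.9 ± 8.38 and 146.8 ± 13.7 CPM in MIAPACA2, and 28.6 ± 6.74 and 129.8 ± 34.8 CPM in PSN1, with AM-9747 and with vehicle in that order. The groups did not overlap in any line. Of the 14476 genes tested in all 3 lines, 2.01% lay below vehicle in this way in each. The BXPC3 sum with AM-9747 rests on 1 to 16 counts per library. The row of CBS alone gave log2 -0.65 ± 0.11 in MIAPACA2 (edgeR adjusted p = 0.00383) and -2.45 ± 0.31 in PSN1 (adjusted p = 0.00189).

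In polyamine turnover and its control, 2 rose and 1 fell of 9 listed genes in BXPC3, 1 rose and 2 fell of 8 tested in MIAPACA2, and none of 9 passed in PSN1. Of all genes tested, 29.2% were called in BXPC3, 13.6% in MIAPACA2 and 10.7% in PSN1. OAZ3, an antizyme otherwise known from testis, rose in BXPC3 to 0.976 ± 0.281 CPM with AM-9747, against 0.230 ± 0.0957 CPM with vehicle (log2 2.08 ± 0.44, adjusted p = 0.00638). In MIAPACA2 it rose to 6.26 ± 1.23 CPM, against 2.85 ± 0.704 CPM (1.16 ± 0.24, adjusted p = 0.0112). In PSN1 it did not pass, though it ranged from 2.37 to 4.51 CPM with AM-9747 and from 0.113 to 1.65 CPM with vehicle. Its exons overlap MRPL9 and TDRKH on the opposite strand, which held many more counts, so reads of those genes may be among its own if counting ignored strand. PAOX, which oxidises acetylated polyamines, fell in BXPC3 (-1.48 ± 0.28, adjusted p = 0.00375) and MIAPACA2 (-1.01 ± 0.23, adjusted p = 0.0160), and in PSN1 it had 0 to 22 counts.

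Ornithine and arginine supply gave 2 higher and 2 lower of 5 genes tested in BXPC3, 1 and 1 of 5 in MIAPACA2, and 0 and 1 of 4 in PSN1. Called in either direction were 29.2%, 13.6% and 10.7% of all genes tested in those lines. ASS1, which makes argininosuccinate, fell in PSN1 to 98.6 ± 10.5 CPM with AM-9747, against 352 ± 129.5 CPM with vehicle (log2 -1.87 ± 0.25, edgeR adjusted p = 0.00261). It rose in MIAPACA2 to 54.5 ± 3.16 CPM, against 23.6 ± 3.46 CPM (1.23 ± 0.14, adjusted p = 0.000615), and the responses of ASS1 differed between lines (F test, adjusted p = 7.80e-07). ASL, the lyase of the next step, fell in BXPC3 (-0.96 ± 0.19, adjusted p = 0.00410) and MIAPACA2 (-1.31 ± 0.30, adjusted p = 0.0171). GATM, which uses arginine for creatine, fell in BXPC3 (-1.15 ± 0.18, adjusted p = 0.00154).

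Of the 4 hypusine genes, which spend spermidine on eIF5A, DHPS rose in BXPC3 to 81.4 ± 10.6 CPM with AM-9747, against 52.7 ± 9.72 CPM with vehicle (log2 0.63 ± 0.16, edgeR adjusted p = 0.0134), and none passed in MIAPACA2 or PSN1. DHPS shares 1157 exonic bases with the annotated gene AC010422.8 on its own strand. Of 8 transport genes tested per line, 2 fell in BXPC3, 2 rose and 1 fell in MIAPACA2, and 3 fell in PSN1. SLC7A5, which carries methionine and other large neutral amino acids, fell in BXPC3 (-0.96 ± 0.13, adjusted p = 0.000643) and PSN1 (-0.94 ± 0.20, adjusted p = 0.0174) and rose in MIAPACA2 (0.56 ± 0.14, adjusted p = 0.0242), a difference between lines that passed (F test, adjusted p = 0.000144). SLC43A2, another carrier of methionine, fell in BXPC3 (-0.52 ± 0.17, adjusted p = 0.0395) and MIAPACA2 (-0.87 ± 0.19, adjusted p = 0.0151). SLC12A8 fell in PSN1 (-1.24 ± 0.22, adjusted p = 0.00760). Several of these calls lay near the threshold. Of the 8 fits that left out 1 library of the line, 6 lost the BXPC3 call of SLC43A2 (adjusted p up to 0.112), those without vehicle or AM-9747 replicates 1, 3 or 4. The MIAPACA2 call of GOT1 was lost in 4 (adjusted p up to 0.0827), those without vehicle replicates 1 or 3 or AM-9747 replicates 1 or 4. In MIAPACA2 the calls of ASL, PAOX and SLC7A5 were each lost in 3 of 8 and that of SLC43A2 in 2 (adjusted p at most 0.0697), and in PSN1 that of SLC7A5 was lost in 4 of 8 (adjusted p up to 0.0835).

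**Figure D5:**
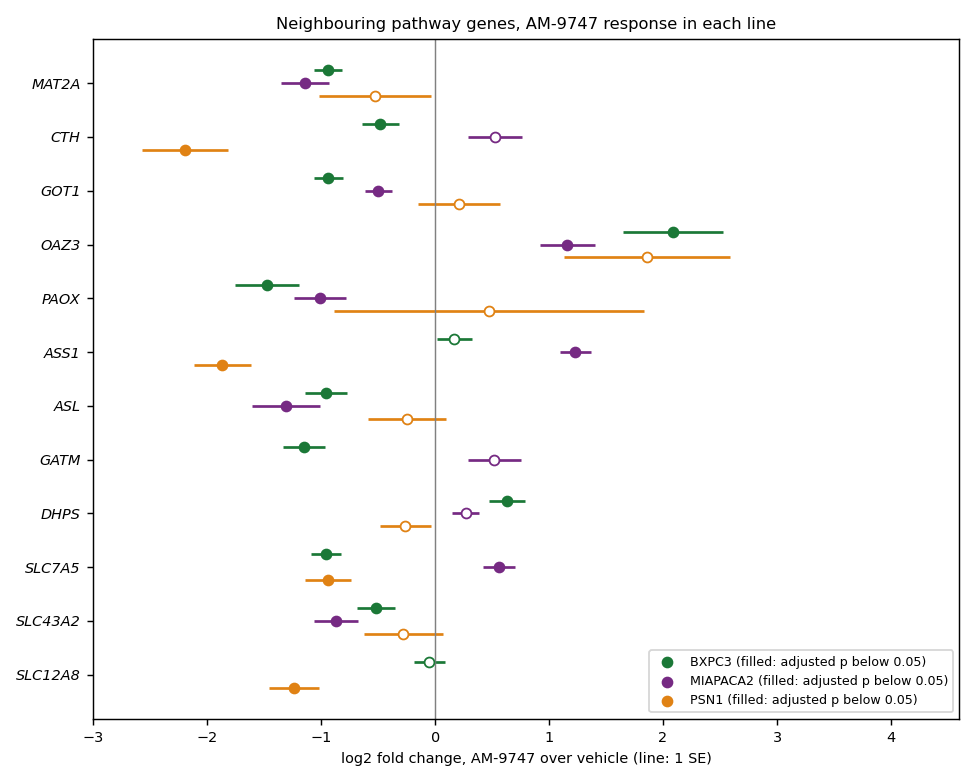
Log2 fold change of AM-9747 over vehicle, with 1 SE, for 12 genes around the salvage and polyamine pathways in each line, filled where edgeR's adjusted p is below 0.05. ASS1 and SLC7A5 lie on opposite sides of 0 in MIAPACA2 and PSN1, and MAT2A and ASL are filled to the left in BXPC3 and MIAPACA2. CBS is left out because its reads are shared with CBSL, and GATM in PSN1 and SLC12A8 in MIAPACA2 were not tested.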

How the data were processed

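Poly(A) RNA of 24 libraries was sequenced with a strand-specific kit, per the labels' protocols. The authors deposited 1 table of raw gene counts. The submitters' processing notes name fastp 0.19.8, HISAT2 2.2.0, DESeq2 1.34.0, R 4.0.2 and the build GRCh38/hg38, without roles. The sources used here do not give the counting tool, its annotation or its strand setting.

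From these counts, edgeR 4.0.16 (R 4.3.3) was run with TMM scaling, its expression filter and quasi-likelihood tests, on the 8 libraries of each line alone, on all 24 jointly for the mean response and for differences between lines, and on the 12 vehicle libraries for levels. P-values were adjusted over all genes tested by the Benjamini-Hochberg method with a threshold of 0.05. The scripts were tested on simulated data. Levels per kilobase use the union of GENCODE v29 exons. Alternatives were DESeq2 1.42.0, voom (limma 3.58.1) with a weight per group, other scalings and filters, the mitochondrial share as a covariate, a block for replicate number, the joint fit, and each library left out. A mean over BXPC3 and MIAPACA2 alone was added after seeing the data.

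The members and lists were chosen with earlier results of these data known. All 10 members are named whatever their values. Of the other lists, genes called the same way in 2 or more lines, or with the largest called change of a line, are named, and any other named gene was chosen after its values were seen. No pair of replicates agreed within sampling noise.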

Additional observations from a re-analysis of the deposited data

Results flagged for a closer look

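In 134 groups of 4 libraries, those of the members and of the named pathway genes, a library far from the other 3 by Dixon's test was looked for; chance alone gives this in about 1 of 20 groups. BXPC3 vehicle replicate 4 stood apart in 4 genes. It had 55.4 CPM of SRM, against 24.3 to 27.2 CPM in the other 3, and 207 CPM of SAT1, against 157 to 162 CPM. It had 11.5 CPM of PAOX, against 6.15 to 7.04 CPM, and 209 CPM of MAT2A, against 250 to 257 CPM. PSN1 vehicle replicate 1 stood apart in AZIN1, at 71.9 CPM against 28.2 to 31.5 CPM, and in CTH, at 35.6 CPM against 12.99 to 16.8 CPM. PSN1 vehicle replicate 3 had 114 CPM of SRM, against 79.4 to 84.6 CPM.

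Among AM-9747 libraries, MIAPACA2 replicate 3 had 22.4 CPM of ASL, against 8.49 to 10.6 CPM, and 106 CPM of SLC7A5, against 75.9 to 80.5 CPM. BXPC3 replicate 1 had 7.99 CPM of GATM, against 5.97 to 6.31 CPM.

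The response differed between the 3 lines by edgeR's F test for AMD1 (adjusted p = 0.0405), CTH (adjusted p = 0.000624), ASS1 (adjusted p = 7.8e-07), SLC7A5 (adjusted p = 0.000144) and CBS (adjusted p = 1.06e-06), whose reads are shared with CBSL.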

How the results depend on the processing

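Outside the fits that left out a library, 820 of 910 values kept their direction and their side of the threshold, 35 lost a call, 38 gained one and 17 changed sign. With 1 library left out, 1394 of 1544 did, 104 lost a call, 28 gained one and 18 changed sign. Where an alternative moved a result its cause was not tested. The fewest counts of a member in a library were 101.

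In BXPC3, 5158 genes were called, against 8025 with the mitochondrial share as a covariate and 2414, with 1 member, in the joint fit. In MIAPACA2, 2456 genes were called, against 3708 with DESeq2, 6382 with the covariate (5 members) and 1151 in the joint fit (1 member); 1 member was left at a mean of at least 5 CPM and 1 with the replicate block. In PSN1, 1954 genes were called, against 3681 with DESeq2 (4 members), 3355 with the replicate block (4 members) and 5762 in the joint fit (3 members); no scaling left 0 members and 5 CPM gave 3. The difference between lines was called for 2764 genes, against 4890 with DESeq2 and 4330 with the block (2 members), and voom left 0 members. Without scaling the calls were 1922 higher and 637 lower in MIAPACA2, 1212 and 541 in PSN1, and 4262 and 1578 for the mean, with all-gene medians of 0.15, 0.37 and 0.24. Same-numbered libraries correlated at -0.43 to 0.63, and 4 of the 12 AM-9747 libraries were best matched by the vehicle library of their own number. With so few libraries this does not settle whether the numbers pair them, and the main fits did not treat them as pairs.

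With 1 library left out, calls ranged from 3707 to 6763 in BXPC3 (3 to 4 members), 1142 to 3243 in MIAPACA2 (1 to 2), 530 to 4370 in PSN1 (0 to 7), 1994 to 6105 for the difference (0 to 5), 4772 to 6692 for the mean (3 to 6) and 13928 to 16013 between vehicle groups (8 to 10).

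These uncalled log2 values changed sign. At 5 CPM, SAT1 was 0.0020 in BXPC3 and -0.0205 in PSN1, and ADI1 was 0.0229 in MIAPACA2. Without scaling, ADI1 was 0.0928, APIP 0.0511 and SAT1 0.0189 in MIAPACA2, and ADI1 was 0.0917 in PSN1. With the covariate, APIP was -0.0474 and AZIN1 -0.0137 in PSN1. The mean without scaling was 0.0184 for ADI1, 0.0919 for AZIN1 and 0.13 for SAT1, and over BXPC3 and MIAPACA2 alone AMD1 was -0.32. Between vehicle groups, AMD1 in BXPC3 minus MIAPACA2 was -0.16 without scaling and -0.0743 at 5 CPM, SAT1 in BXPC3 minus PSN1 was -0.0266 at 5 CPM, and ODC1 in MIAPACA2 minus PSN1 was -0.0278 at 5 CPM. With 1 library left out, values ran from -0.17 to 0.0584 (SAT1, BXPC3), -0.35 to 0.13 (SRM, BXPC3), -0.11 to 0.0036 (ADI1, MIAPACA2), -0.20 to 0.0262 (APIP, MIAPACA2), -0.0678 to 0.0075 (SAT1, mean) and -0.13 to 0.0835 (AZIN1, mean). Between vehicle groups they ran from -0.0804 to 0.29 (AMD1, BXPC3 minus MIAPACA2), -0.83 to 0.0017 (APIP) and -0.37 to 0.11 (SMS, both BXPC3 minus PSN1), and -0.0769 to 0.74 (ODC1, MIAPACA2 minus PSN1).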
